A study of Homo sapiens with 15 samples.

Results

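The Toll-like receptors of human cells, TLR1 to TLR10, were followed on 15 arrays of SCC13 cells, a keratinocyte line from a squamous cell carcinoma of the skin. The members were all probes of the array, control spots aside, whose transcript accession belongs to 1 of these 10 genes. There were 12 such probes among 50599, and 10 genes among the 20503 that had a probe with a symbol, with 2 probes each for TLR4 and TLR5 and 1 for each of the other receptors. A probe was tested when it rose well above background on all arrays of 1 group or more, which held for 5 probes of 5 receptors (TLR1, TLR3, TLR4, TLR5 and TLR6) and for 22685 probes in all.

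The cells had been stably transfected with the plasmid pUNO alone (SCC13-pUNO) or with pUNO carrying TLR4 fused to GFP (SCC13-TLR4), and both lines had been selected with blasticidin. The sources used here describe a sort of the cells with the highest GFP signal, and do not say that a line was 1 clone. Each line was left untreated or was given 10 μg/ml LPS, the bacterial ligand of TLR4, for 24 h. Untreated SCC13-pUNO cells were measured on 4 arrays and untreated SCC13-TLR4 cells on 3, and each LPS-treated line on 4. The labels do not name separate transfections, so the replicates measure the spread between cultures of the same transfected cells, which may in part be technical.

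Toll-like receptors are membrane proteins that recognise conserved microbial molecules. TLR1, TLR2, TLR4, TLR5, TLR6 and TLR10 act at the cell surface. Among them, TLR2 pairs with TLR1 or TLR6 to bind lipopeptides, TLR4 binds LPS with the help of LY96 (MD-2) and CD14, and TLR5 binds flagellin. TLR3, TLR7, TLR8 and TLR9 act in endosomes, where TLR3 binds double-stranded RNA, TLR7 and TLR8 bind single-stranded RNA and TLR9 binds DNA with unmethylated CpG. All of them except TLR3 signal through the adaptor MYD88, while TLR3 and, in endosomes, TLR4 use TICAM1 (TRIF). In skin, keratinocytes use these receptors to sense microbes and to release chemokines.

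Each value is the log2 intensity of a probe over its array's 75th percentile, so that 0 is the 75th percentile and each unit is a doubling. That percentile lay between 192 and 420 on the linear intensity scale, and 47.1% to 56.2% of spots were well above background. Precision is limited by how few arrays there are. Of 8 keratinocyte markers, 7 were well above background on all 15 arrays, KRT5 and KRT14 among them, and KRT6A was so on 7. None of 5 fibroblast markers was well above background on all arrays, and 4 of them were so on 0 arrays. Of 5 leukocyte markers, however, 3 were well above background on all 15 arrays. So were 1 of 5 B and T cell, 1 of 3 endothelial and 1 of 3 melanocyte markers. The arrays lay on 2 slides, with 3 of the 4 untreated SCC13-pUNO arrays and 1 of the 3 untreated SCC13-TLR4 arrays on slide 1. In their deviations from the group means, arrays that shared a slide were more alike than arrays on different slides. The main fit had no slide term. The array labelled replicate 2 of untreated SCC13-pUNO went against its label for TLR4, and results that rest on it are given with and without it.

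No sequence is printed for the probes, and the levels of different probes were not compared with each other, since the intensity of a spot depends on its probe. What can be compared is each probe over the 15 arrays.

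**Figure D1:**
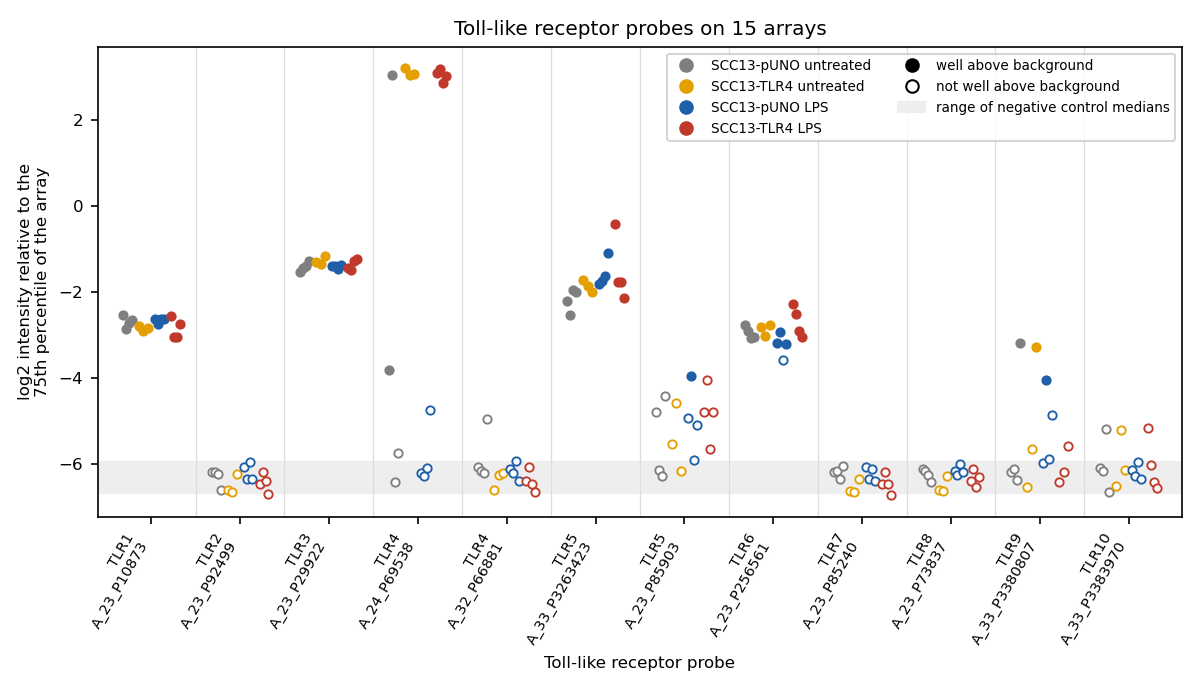
Log2 intensity over the 75th percentile of that array (vertical axis) for the 12 Toll-like receptor probes (horizontal axis) on 15 arrays, 1 point per array, coloured by group, filled where the probe was well above background and open where it was not; the grey band is the range of the negative control medians, -6.67 to -5.95. TLR4 (A_24_P69538) splits into a high cluster with 7 SCC13-TLR4 arrays and 1 untreated SCC13-pUNO array and a low cluster with the other 7 SCC13-pUNO arrays, while TLR1, TLR3, TLR5 (A_33_P3263423) and TLR6 lie in 1 range in all groups.

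TLR4 was read by the probe A_24_P69538, and RNA of the plasmid and of the cells' own gene were not told apart here. This probe passed the detection filter only through the SCC13-TLR4 groups, where it was well above background on every array. A higher level in SCC13-TLR4 cells was set by the plasmid and by this filter. The p-values of TLR4 between the lines are therefore given as a description. In untreated SCC13-TLR4 cells the 3 arrays were at 3.19, 3.04 and 3.07, and in LPS-treated SCC13-TLR4 cells the 4 arrays were at 3.08, 3.19, 2.84 and 3.02. In LPS-treated SCC13-pUNO cells the arrays were at -6.19, -6.26, -6.09 and -4.74, none of them (0 of 4) well above background. In untreated SCC13-pUNO cells, replicates 1, 3 and 4 were at -3.80, -6.40 and -5.72, while the array labelled replicate 2 was at 3.04. All 7 SCC13-TLR4 arrays lay within 2.84 to 3.19, a range that also held the array labelled replicate 2 of untreated SCC13-pUNO. The lowest SCC13-TLR4 arrays were those of LPS-treated replicates 3 and 4, on slide 2, and every other SCC13-pUNO array was lower than any SCC13-TLR4 array.

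With LPS, the signal of this TLR4 probe in SCC13-TLR4 cells was at least 175-fold higher than in SCC13-pUNO cells, where the dim group was set, per array, to the lowest signal of any probe well above background or to its own value if higher. The bound was 106.6-fold when the dim group was set to the brightest signal below the detection mark. The fit gave a log2 fold change of 8.86 (SE 1.47, limma unadjusted p = 3.83e-05, adjusted p = 0.312), with SCC13-TLR4 higher in 16 of 16 pairs of arrays (two-sided exact permutation test, p = 0.0286, the smallest that 4 against 4 arrays allow). The array labelled replicate 2 of untreated SCC13-pUNO is in neither of these groups, but all groups share 1 estimate of the spread. Without it the same log2 fold change of 8.86 had an SE of 0.47 and an adjusted p of 1.40e-06 (limma). Untreated, the lines differed by 6.32 (SE 1.59, unadjusted p = 0.00149, limma adjusted p = 0.999) with that array and by 8.41 (SE 0.54, limma adjusted p = 1.42e-05) without it. Of the 3 SCC13-pUNO arrays that then remain, 1 was well above background, so the size of 8.41 rests in part on values at background. The SCC13-TLR4 arrays were higher in 12 of 12 pairs with it, as 2.1% of all probes were without overlap, and in 9 of 9 pairs without it, as 4.13% were. The 12 of 12 includes a near tie, since the array labelled replicate 2 was at 3.0352 and the lowest untreated SCC13-TLR4 array at 3.0361.

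LPS left the TLR4 reading of SCC13-TLR4 cells within the spread of the arrays, with a log2 fold change of -0.07 (95% confidence interval -1.17 to 1.03 without the array labelled replicate 2 of untreated SCC13-pUNO, limma adjusted p = 1.00). In SCC13-pUNO cells the LPS-treated mean was lower than the untreated one by 2.60 on the log2 scale, at -5.82 ± 0.73 (SD, n = 4) against -3.22 ± 4.31 (SD, n = 4). Without that array the fitted difference was -0.51 (SE 0.51, limma adjusted p = 1.00), and the untreated mean was -5.31 ± 1.35 (SD, n = 3). The probe was well above background on untreated SCC13-pUNO replicate 1, at -3.80, and not on replicates 3 and 4.

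A second TLR4 probe (A_32_P66881), which carries the same transcript accession, was not informative on the lines. It was well above background on 0 of 15 arrays, was not tested, and lay between -6.63 and -4.96. The 7 SCC13-TLR4 arrays were between -6.63 and -6.06, and the highest value was that of untreated SCC13-pUNO replicate 4. Where in the TLR4 transcript the probes lie was not analysed here.

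TLR1, TLR6 and TLR10, which lie next to each other in the genome with 0 protein-coding genes between them in the RefSeq annotation, differed in detection. TLR1 (A_23_P10873) was read by 10 spots per array and was well above background on 15 of 15 arrays. Untreated, it was at -2.54, -2.85, -2.71 and -2.65 in SCC13-pUNO and at -2.78, -2.91 and -2.82 in SCC13-TLR4 cells. With LPS it was at -2.63, -2.73, -2.62 and -2.63 in SCC13-pUNO cells and at -2.56, -3.05, -3.05 and -2.73 in SCC13-TLR4 cells. The SCC13-TLR4 means were the lower ones in both conditions, and the arrays of the lines overlapped.

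The log2 fold change of TLR1 between the lines was -0.15 (95% confidence interval -0.43 to 0.12) in untreated cells and -0.19 (-0.45 to 0.06) with LPS, with limma adjusted p = 0.999 and 1.00. LPS moved TLR1 by 0.03 (-0.22 to 0.29) in SCC13-pUNO cells and by -0.01 (-0.28 to 0.27) in SCC13-TLR4 cells, and the sign of both changed with the setting. The SD between the spots of 1 array was 0.18 in the median, and the SE of their mean was 0.06 in the median. The SD between arrays of a group, each a mean of its spots, was 0.15. The largest spread between arrays was in LPS-treated SCC13-TLR4 cells, at 0.24.

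TLR6 (A_23_P256561), the other partner of TLR2, was well above background on 14 of 15 arrays. Without LPS it was at -2.76, -2.89, -3.07 and -3.03 in SCC13-pUNO and at -2.81, -3.03 and -2.77 in SCC13-TLR4. With LPS it was at -3.18, -2.94, -3.57 and -3.21 in SCC13-pUNO, where replicate 3 was not well above background, and at -2.28, -2.51, -2.91 and -3.03 in SCC13-TLR4. The untreated lines overlapped throughout, whereas with LPS only the lowest SCC13-TLR4 array fell below the highest SCC13-pUNO array.

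The TLR6 difference between the lines with LPS was 0.54 on the log2 scale (SE 0.17, 95% confidence interval 0.16 to 0.91), with SCC13-TLR4 higher in 15 of 16 pairs (two-sided exact permutation test, p = 0.0571). Its unadjusted p was 0.00814 (limma). An unadjusted p under 0.05 was reached by 2.72% of the probes tested, and by 1.27% with SCC13-TLR4 higher. The difference did not pass the adjustment over all probes (limma adjusted p = 1.00). Within slides 1 and 2 it was 0.66 and 0.41, and the mean of LPS-treated SCC13-pUNO cells includes the array on which TLR6 was not well above background. With the normexp method, which adds an offset of 50 to all intensities, the difference was 0.07. In untreated cells the difference was 0.07 (SE 0.19) and took the opposite sign under 2 settings. The difference between the lines in the LPS response was 0.47 (SE 0.25, limma adjusted p = 1.00). LPS moved TLR6 by -0.15 and -0.36 within slides 1 and 2 in SCC13-pUNO cells and by 0.41 and -0.07 in SCC13-TLR4 cells.

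TLR2 (A_23_P92499), the shared partner of TLR1 and TLR6, was read by 10 spots per array and was well above background on 0 of 15 arrays. Its values, between -6.68 and -5.94, differed from the median of the negative control spots of the same array by -0.03 to 0.08. On 0 arrays did it exceed the 95th percentile of those spots. TLR10 (A_33_P3383970) was also well above background on 0 of 15 arrays. It was above the 95th percentile of the negative controls on 5 arrays, of which the highest were LPS-treated SCC13-TLR4 replicate 1 at -5.16, untreated SCC13-pUNO replicate 3 at -5.17 and untreated SCC13-TLR4 replicate 2 at -5.21. These 3 arrays belong to different groups. A probe at background gives only a bound on the signal, so neither gene can be called absent from the cells.

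**Figure D2:**
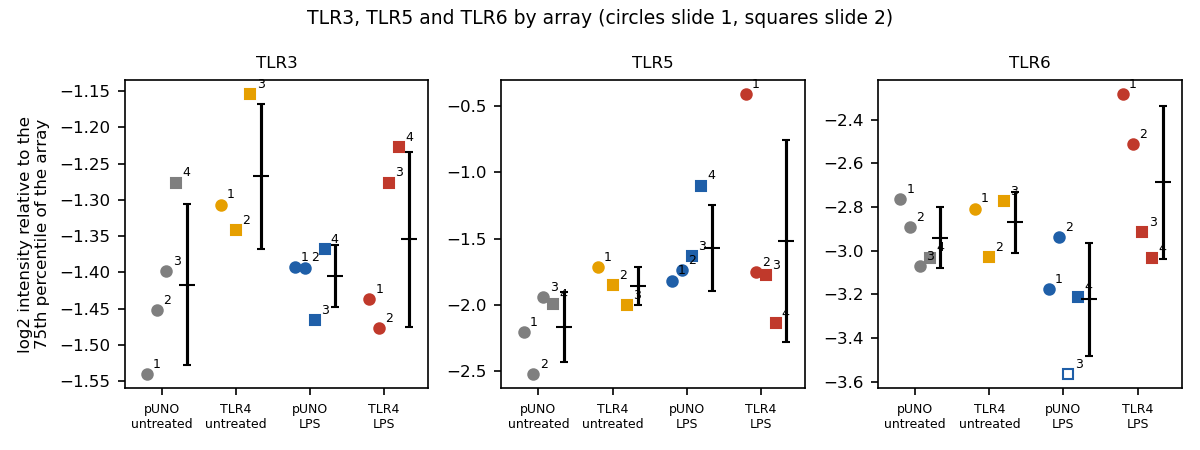
Log2 intensity over the 75th percentile of that array (vertical axes, with a scale of their own in each panel) of TLR3, TLR5 (A_33_P3263423) and TLR6 in the 4 groups, 1 point per array with its replicate number, circles for slide 1 and squares for slide 2, open where the probe was not well above background; black bars give the mean and SD of 4 arrays (3 in untreated SCC13-TLR4 cells). TLR3 spans -1.54 to -1.15 in all, TLR5 stands out at -0.41 on LPS-treated SCC13-TLR4 replicate 1, and TLR6 has its highest values on LPS-treated SCC13-TLR4 replicates 1 and 2.

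TLR5, the flagellin receptor, was read by A_33_P3263423 on 15 of 15 arrays. In SCC13-pUNO cells it was at -2.21, -2.53, -1.94 and -2.00 without and at -1.82, -1.74, -1.64 and -1.10 with LPS. In SCC13-TLR4 cells it was at -1.71, -1.85 and -2.00 without and at -0.41, -1.75, -1.77 and -2.14 with LPS. All 4 LPS-treated SCC13-pUNO arrays lay above all 4 untreated ones. In SCC13-TLR4 cells the groups overlapped, and 1 array, LPS-treated replicate 1, lay far above the other 3 of its group.

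The LPS difference of TLR5 in SCC13-pUNO cells was 0.59 on the log2 scale (SE 0.30, 95% confidence interval -0.06 to 1.25, 16 of 16 pairs, two-sided exact permutation test, p = 0.0286). It did not pass the test (limma unadjusted p = 0.0703, adjusted p = 1.00), and 0.938% of all probes tested had LPS-treated SCC13-pUNO arrays above the untreated ones without overlap. The difference was 0.45 and 0.63 within slides 1 and 2, 0.47 without the array labelled replicate 2 of untreated SCC13-pUNO, which was the lowest (1.59% of probes then did not overlap), and 0.38 with normexp. In SCC13-TLR4 cells the difference was 0.34 (-0.36 to 1.04), with 0.63 on slide 1 and -0.03 on slide 2. It was -0.03 without replicate 1 of the LPS-treated arrays. The difference of the responses between the lines was -0.26 (SE 0.44, limma adjusted p = 1.00).

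Between the lines, TLR5 differed by 0.31 (-0.39 to 1.01) in untreated cells, or 0.19 without the array labelled replicate 2 of untreated SCC13-pUNO, and by 0.06 (-0.60 to 0.71) with LPS, the latter with opposite signs on the slides, 0.70 on slide 1 and -0.59 on slide 2. On LPS-treated SCC13-TLR4 replicate 1, where TLR5 was highest, the leukocyte marker PTPRC also had its highest value of the 15 arrays, at -1.15. PTPRC was 1 of the 3 probes picked below for the highest r with TLR5 (0.83). Its likeness to TLR5 on this array thus follows from that choice and is given as a description. Of the 5 leukocyte markers with a probe, PTPRC, CD68 and CSF1R were well above background on all 15 arrays, ITGAM on 7 and CD163 on 0. On that array CD68 also ranked first and CSF1R second, while ITGAM ranked 10th and CD163 11th. The log2 of the summed relative intensity of the 5 probes was 0.67 there, and between -0.05 and 0.30 on the other LPS-treated SCC13-TLR4 arrays. The sum lay between -0.07 and 0.26 in untreated SCC13-pUNO cells, between 0.11 and 0.26 in untreated SCC13-TLR4 cells and between 0.08 and 0.26 in LPS-treated SCC13-pUNO cells. It includes PTPRC, so its height on LPS-treated SCC13-TLR4 replicate 1 follows in part from the same choice. It also adds probes of different brightness, of which the brighter weigh more, and is given only as a description. The part of these markers in the TLR5 value was not tested. The arrays are of cultures of a keratinocyte line. CD79A, CDH5 and PMEL, listed as B and T cell, endothelial and melanocyte markers, were also well above background on all 15 arrays. The leukocyte probes were therefore not read as a number of leukocytes, and do not tell whether any were present.

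The other TLR5 probe (A_23_P85903), with the same accession, was well above background on 1 of 15 arrays, LPS-treated SCC13-pUNO replicate 2, at -3.94. Its values ran from -6.27 to -3.94 and exceeded the 95th percentile of the negative controls on 11 arrays. In LPS-treated SCC13-TLR4 cells it was at -4.78, -4.04, -5.63 and -4.78. On this probe replicate 1 did not stand apart.

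Among the endosomal receptors, TLR3 (A_23_P29922), which binds double-stranded RNA, was well above background on 15 of 15 arrays and had the narrowest range of the 5 probes tested. In SCC13-pUNO cells it was at -1.54, -1.45, -1.40 and -1.28 without and at -1.39, -1.39, -1.47 and -1.37 with LPS. In SCC13-TLR4 cells it was at -1.31, -1.34 and -1.15 without and at -1.44, -1.48, -1.28 and -1.23 with LPS. The groups overlapped in every comparison, and the SD over all 15 arrays was 0.10.

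TLR3 differed between the lines by 0.15 (95% confidence interval -0.07 to 0.37) in untreated cells and by 0.05 (-0.15 to 0.25) with LPS. LPS moved it by 0.01 (-0.19 to 0.21) in SCC13-pUNO cells, with a sign that changed with the setting, and by -0.09 (-0.31 to 0.13) in SCC13-TLR4 cells. The limma adjusted p was 0.999 or 1.00 in these comparisons. The confidence intervals leave room for changes of up to 0.37 on the log2 scale.

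TLR7 (A_23_P85240) and TLR8 (A_23_P73837), which are neighbours on the X chromosome and bind single-stranded RNA, were well above background on 0 of 15 arrays. TLR7 lay between -6.71 and -6.03 and TLR8 between -6.61 and -5.99. They exceeded the 95th percentile of the negative controls on 1 and 2 arrays. No group stood out for either gene.

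TLR9 (A_33_P3380807), the receptor for CpG DNA, was marked well above background on 4 of 15 arrays, 1 in each group. These were untreated SCC13-pUNO replicate 4 at -3.18, untreated SCC13-TLR4 replicate 3 at -3.27, LPS-treated SCC13-pUNO replicate 2 at -4.03 and LPS-treated SCC13-TLR4 replicate 3, whose spot was marked as an outlier and whose value was left out. Without that spot the count was 3 of 14, with 0 in LPS-treated SCC13-TLR4 cells. On the other 11 arrays TLR9 lay between -6.51 and -4.84. The values followed neither the line nor LPS, and the probe was not tested. Of the marked arrays, LPS-treated SCC13-pUNO replicate 2 lay on slide 1 and the others on slide 2. The remaining values were at -5.96 or below on slide 1 and between -5.87 and -4.84 on slide 2. Whether the slide had a part in this was not tested.

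Over the 5 tested probes, 0 passed the adjusted threshold of 0.05 in any of the 5 comparisons (limma), where 0% of the 22685 probes tested did in each. At an unadjusted p under 0.05 there were 1 of 5 between the untreated lines (TLR4) and 2 of 5 between the lines with LPS (TLR4 and TLR6), against 2.5% and 2.72% of all probes. There were 0 of 5 for LPS in SCC13-pUNO cells, for LPS in SCC13-TLR4 cells and for the difference of the responses, against 2.48%, 1.33% and 1.32%. Without the array labelled replicate 2 of untreated SCC13-pUNO, TLR4 was the only receptor probe that passed between the lines, without and with LPS, where 0.0308% and 0.044% of 22753 probes passed (0.0483% and 0.0967% with slide as a factor as well, where TLR4 also passed). TLR4 is the gene on the plasmid, so its calls between the lines follow from the design. The comparisons share groups, so their values are not independent of each other.

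**Figure D3:**
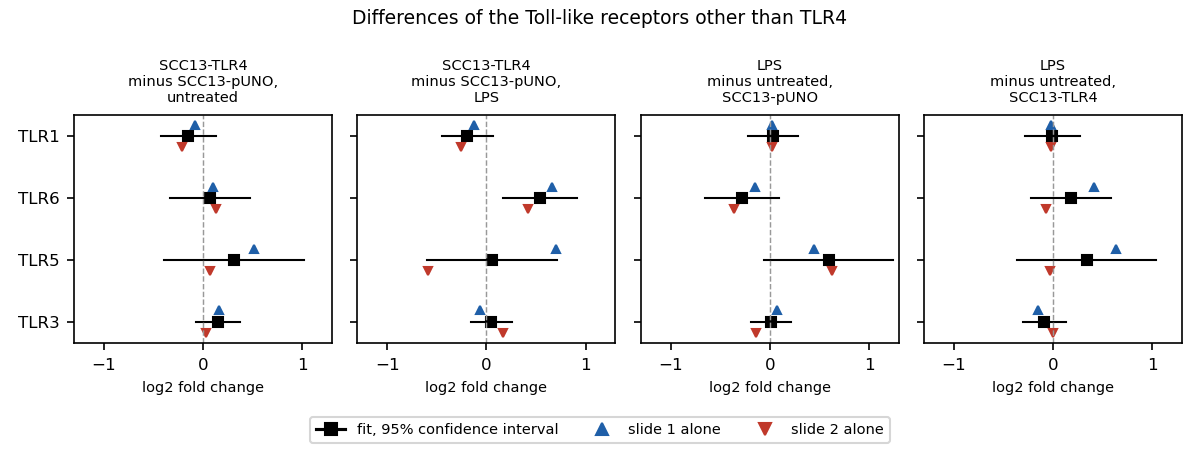
Log2 fold change (horizontal axes) of TLR1, TLR6, TLR5 (A_33_P3263423) and TLR3 in the 4 comparisons of groups, with squares and lines for the fitted value and its 95% confidence interval over 15 arrays, and triangles for the difference of means within slide 1 (pointing up) and slide 2 (pointing down). The interval lies to one side of 0 for TLR6 between the lines with LPS (0.16 to 0.91). The slides lie on opposite sides of 0 for TLR5 and TLR3 between the lines with LPS. They do so too for TLR3 with LPS in SCC13-pUNO cells and for TLR5 and TLR6 with LPS in SCC13-TLR4 cells.

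The order of the group means differed from gene to gene. From the lowest, it was LPS-treated SCC13-pUNO, untreated SCC13-pUNO, untreated SCC13-TLR4 and LPS-treated SCC13-TLR4 for TLR6. For TLR5 both untreated groups were below both LPS-treated groups, and for TLR3 both SCC13-pUNO groups were below both SCC13-TLR4 groups. For TLR1 both SCC13-TLR4 groups were the lowest. In each of these 4 genes, the arrays of neighbouring groups in the order overlapped.

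Among the proteins that work with the receptors, LY96, which binds LPS together with TLR4, was well above background on 15 of 15 arrays. Its values lay at -3.66, -1.79, -3.70 and -3.30 in untreated SCC13-pUNO cells, at -2.79, -3.32 and -3.02 in untreated SCC13-TLR4 cells, at -3.28, -3.67, -3.36 and -3.57 in LPS-treated SCC13-pUNO cells and at -2.92, -2.88, -3.23 and -3.69 in LPS-treated SCC13-TLR4 cells. The value that stands apart, -1.79, is that of the array labelled replicate 2 of untreated SCC13-pUNO. With it the lines differed by 0.07 (SE 0.38) in untreated cells, and without it by 0.51 (SE 0.22, limma adjusted p = 1.00). Without it the difference was 0.89 within slide 1, which holds 1 untreated SCC13-TLR4 array, and 0.13 within slide 2.

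CD14, which hands LPS to TLR4 and LY96, was well above background on 15 of 15 arrays, between -3.06 and -1.99. LPS-treated minus untreated SCC13-TLR4 cells gave a difference of 0.39 (SE 0.25) for CD14, and SCC13-pUNO cells one of -0.08 (SE 0.23). Both were within the spread of the arrays (limma adjusted p = 1.00). LBP, CD36 and CD180, further accessory proteins, were well above background on 0 of 15 arrays.

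The adaptors MYD88, TIRAP (A_23_P202905) and TICAM1 (A_23_P90311), and UNC93B1 (A_21_P0012568), the chaperone that brings the endosomal receptors to their compartment, were each well above background on 15 of 15 arrays. MYD88 was between -0.28 and 0.48. Between the lines, MYD88 differed by 0.03 and 0.16, TIRAP by -0.20 and -0.19, TICAM1 by -0.04 and -0.12 and UNC93B1 by -0.26 and -0.13, without and with LPS. None of these passed the test, and all adjusted p-values were 0.999 or above (limma). Further probes of these genes did not pass either, and with LPS the second probes of TIRAP (A_23_P397856) and TICAM1 (A_23_P376096) had the opposite sign, at 0.19 and 0.25. The untreated lines were spread unevenly over the slides, from which the differences above were not separated. On slide 1, untreated TIRAP (A_23_P202905) was at -0.79, -1.12 and -0.80 in SCC13-pUNO and -0.83 in SCC13-TLR4. On slide 2 it was at -1.33 in SCC13-pUNO and at -1.39 and -1.41 in SCC13-TLR4. Untreated UNC93B1 (A_21_P0012568) was at 5.48, 5.23 and 5.38 against 5.23 on slide 1, and at 4.98 against 4.93 and 4.86 on slide 2. TICAM2 and TMED7 were not matched to a probe.

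**Figure D4:**
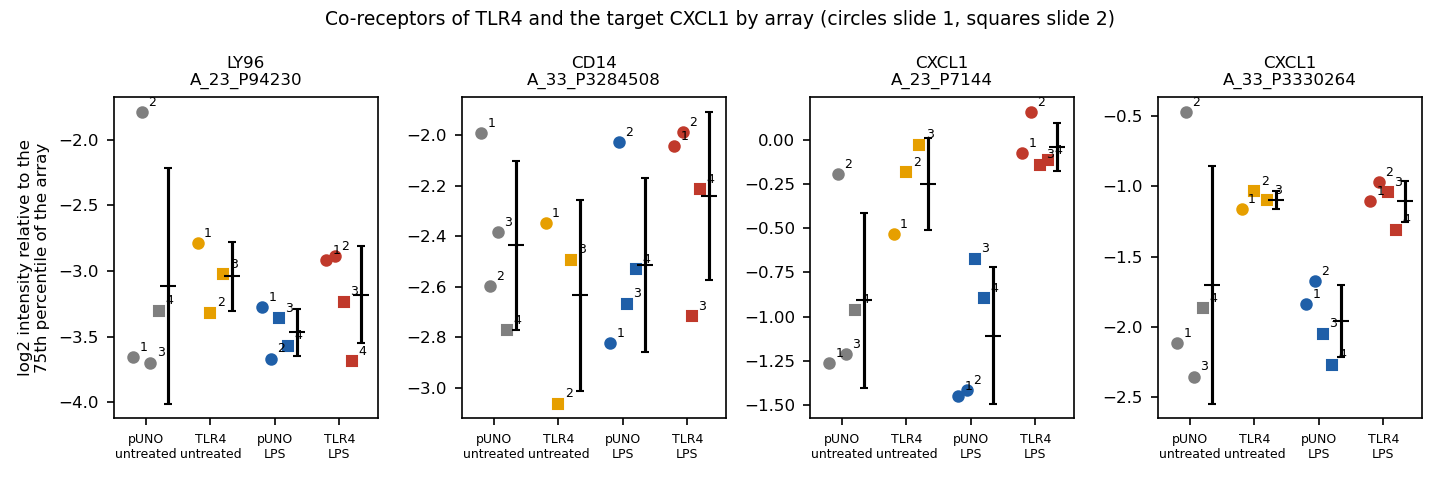
Log2 intensity over the 75th percentile of that array (vertical axes, with a scale of their own in each panel) of LY96, CD14 and both CXCL1 probes in the 4 groups, 1 point per array with its replicate number, circles for slide 1 and squares for slide 2; black bars give the mean and SD of 4 arrays (3 in untreated SCC13-TLR4 cells). The array labelled replicate 2 of untreated SCC13-pUNO lies above its group for LY96 (-1.79) and for CXCL1 (-0.19 and -0.47).

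The wider signalling list held 64 genes by role, of which 62 had a probe and 43 were tested. Of these genes, 41 were well above background on all 15 arrays and 12 on no array. The 12 included the target genes CXCL8, CCL20, ICAM1 and IFNB1, the inhibitor TNFAIP3 (A20) and the kinases IRAK2 and IRAK3. All 5 transcription factors of the list (NFKB1, RELA, IRF3, IRF5 and IRF7) were well above background on every array. The kinase IRAK4 was so on 2 arrays.

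In each of the 5 comparisons 0 of the 43 genes passed the adjusted threshold (limma). At an unadjusted p under 0.05, 2 genes were higher and 0 lower between the untreated lines, beside 1.62% and 0.877% of all probes. Between the lines with LPS 1 was higher and 1 lower, beside 1.27% and 1.45%. With LPS in SCC13-pUNO cells 1 was higher and 0 lower, beside 2.05% and 0.432%, and in SCC13-TLR4 cells 0 were higher and 0 lower, beside 0.948% and 0.379%. For the difference of the responses 0 were higher and 1 lower, beside 0.401% and 0.917%. The median log2 fold change of the 43 genes was -0.04 between the untreated lines and -0.02 between the lines with LPS, beside -0.02 and -0.01 over all probes tested. With LPS it was -0.07 in SCC13-pUNO cells and -0.03 in SCC13-TLR4 cells, beside -0.01 and -0.01. With slide as a factor and without the array labelled replicate 2, the medians turned positive between the untreated lines, at 0.05, and with LPS in SCC13-pUNO cells, at 0.01.

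**Figure D5:**
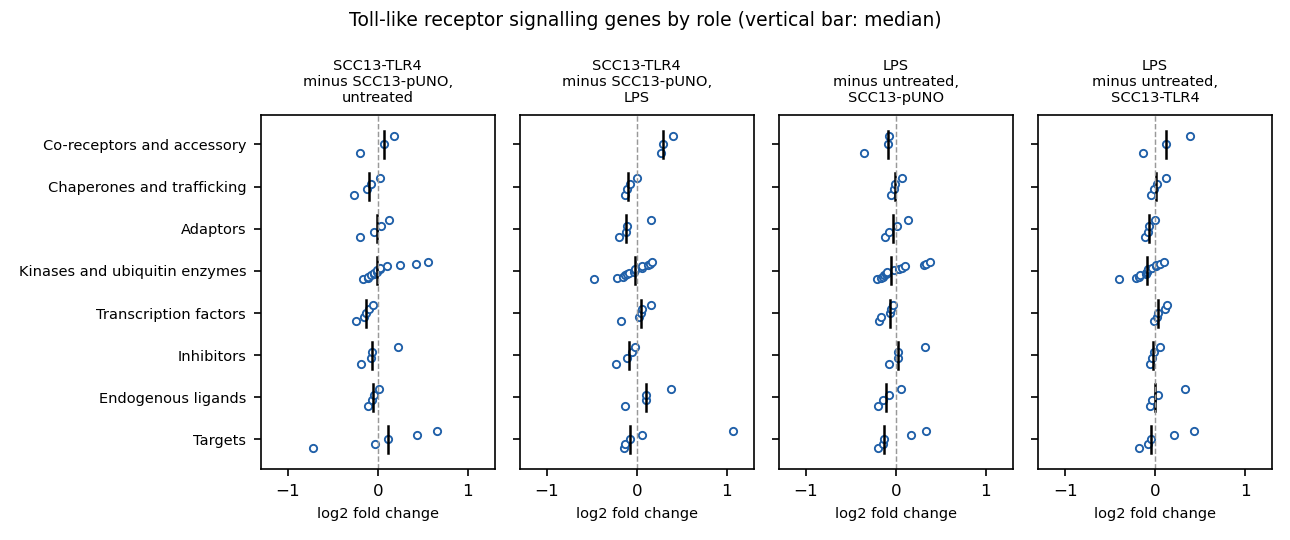
Log2 fold change (horizontal axes) of the 43 tested Toll-like receptor signalling genes by role (vertical axis) in the 4 comparisons of groups, 1 point per gene, with a vertical bar at the median of each role. The medians of all roles lie between -0.13 and 0.29, and the gene farthest to the right with LPS between the lines is the target CXCL1 at 1.06.

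CXCL1, a chemokine that attracts neutrophils and a target of NF-kB, was read by 2 probes. The probe A_23_P7144 had the lowest p of the list between the lines with LPS, and the values given first are those of the other probe. A_33_P3330264 was at -2.12, -0.47, -2.35 and -1.87 in untreated SCC13-pUNO cells and at -1.16, -1.04 and -1.10 in untreated SCC13-TLR4 cells. Under LPS, A_33_P3330264 was at -1.84, -1.68, -2.05 and -2.27 in SCC13-pUNO cells and at -1.10, -0.97, -1.04 and -1.31 in SCC13-TLR4 cells. As with TLR4, the array labelled replicate 2 of untreated SCC13-pUNO was not with the other SCC13-pUNO arrays, and on A_33_P3330264 it was the highest of all. On A_23_P7144 that array was at -0.19, and the SCC13-TLR4 arrays were between -0.53 and 0.16. With LPS the lines did not overlap on either probe.

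On A_33_P3330264 the lines differed with LPS by 0.85 (SE 0.31, limma adjusted p = 1.00, 16 of 16 pairs), and by 0.72 and 0.99 within slides 1 and 2, where 0.556% of all probes were higher without overlap. In untreated cells the difference was 0.60 (SE 0.33) with the array labelled replicate 2 and 1.01 (SE 0.17, limma adjusted p = 0.122) without it. The other CXCL1 probe (A_23_P7144) gave 1.06 with LPS (SE 0.24, limma adjusted p = 0.545), and 1.47 and 0.66 within slides 1 and 2. Its adjusted p was 0.103 without the array labelled replicate 2, and it passed at 0.0246 with slide as a factor as well (limma). LPS within a line moved A_33_P3330264 by -0.26 (SE 0.31) in SCC13-pUNO cells, and by 0.16 (SE 0.16) without the array labelled replicate 2. In SCC13-TLR4 cells it moved by -0.01 (SE 0.33).

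Other genes of the list with the lowest p in a comparison did not pass either. PELI1, a ubiquitin ligase that acts with the IRAK kinases, was at -0.04, -0.44, -0.22 and -0.25 in LPS-treated SCC13-TLR4 cells and at -0.03, -0.03, 0.68 and 0.31 in LPS-treated SCC13-pUNO cells. The lines differed by -0.47 (SE 0.16, limma adjusted p = 1.00, 0 of 16 pairs higher, exact permutation test, p = 0.0286), and 0.711% of all probes were lower without overlap. The difference of PELI1 was -0.21 on slide 1 and -0.73 on slide 2.

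IL1B, an inflammatory cytokine, had a log2 fold change of 0.44 (SE 0.15) between the untreated lines and of 0.33 (SE 0.14) with LPS in SCC13-pUNO cells. The difference of its LPS responses between the lines was -0.51 (SE 0.20, limma adjusted p = 1.00). IL6, another cytokine, differed by -0.72 (SE 0.42) between the untreated lines, and by -1.25 and -0.12 within slides 1 and 2. The matrix proteoglycan VCAN, a ligand of TLR2, differed by 0.38 (SE 0.25) between the lines with LPS, where it was well above background on all 4 SCC13-TLR4 arrays and on 2 of 4 SCC13-pUNO arrays, so that the SCC13-pUNO mean is in part a background value. CYLD, which removes ubiquitin chains, differed by 0.32 (SE 0.26) with LPS in SCC13-pUNO cells, but by 0.17 and 0.08 within slides 1 and 2 and by 0.20 without the array labelled replicate 2. The ubiquitin ligase TRAF6 differed by -0.21 (SE 0.15) with LPS in SCC13-TLR4 cells, where VCAN differed by 0.33 (SE 0.27).

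The probes whose values ran most like those of a receptor over the 15 arrays were looked up among 17028 tested probes with a symbol and a value on every array. These are descriptions of arrays that share their slides and lines, and no test was made of them. For TLR4, they were HBB (Pearson's r = 0.99), FHIT (0.95), ST8SIA5 (0.93), IRX5 (0.92) and KRT14 (0.91). The array labelled replicate 2 of untreated SCC13-pUNO was among the 15 arrays by which these probes were picked, so its place on them follows from the choice and is given as a description. HBB and ST8SIA5 were each well above background on 8 of 15 arrays, so part of their values are background readings. ST8SIA5 was at -2.34 on the array labelled replicate 2, between -3.15 and -2.40 on the SCC13-TLR4 arrays and at -4.11 or below on the other SCC13-pUNO arrays. IRX5 was at -1.34 on that array, between -1.54 and -1.02 on the SCC13-TLR4 arrays and at -1.62 or below on the other SCC13-pUNO arrays.

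For TLR1 the most alike were SCCPDH (r = 0.86), MED23 (0.86) and RAMP1 (0.85), and for TLR3 they were HNRNPA2B1 (0.89), BMS1 (0.87) and PSMC5 (0.87). For TLR5 they were NOS3 (0.88), ENTPD5 (0.86) and PTPRC (0.83), with r of 0.93, 0.89 and 0.90 on the 8 arrays of slide 1, which holds the high TLR5 array. On slide 2 they were 0.99, 0.82 and 0.75.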

How the data were processed

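RNA of SCC13-pUNO and SCC13-TLR4 cells, untreated or treated with LPS, was hybridized to 1-colour Agilent arrays by the authors. The values are spot intensities: the authors deposited each intensity after background subtraction and detrending by Agilent Feature Extraction 10.7.3.1 (per the file headers), without normalization between arrays. The normalization and test that the authors used for the arrays are not given in the sources used here. The series-wide matrix repeats these intensities, being identical at 100% of the 62976 spots.

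Log2 intensities were set against the 75th percentile of all 58717 non-control spots. Outlier-marked spots were removed before averaging over each probe. Symbols came from accessions through a RefSeq table of GRCh38.p14, newer than the hg19 design of the array, for 28174 of 50599 probes. A probe counted as well above background when the software marked no less than 0.5 of its spots so. Probes so marked throughout 1 group or more were tested in R 4.3.3 by limma 3.58.1 (lmFit, eBayes), giving each group its own mean over 15 arrays and Benjamini-Hochberg adjustment over all 22685 probes (threshold 0.05). Single probes were also compared by two-sided exact permutation tests over 70 or 35 splits of the arrays. Slides were given by the file headers.

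The members, the gene lists and the tests were chosen with earlier results of these data known. Every member probe was reported. From the signalling list (co-receptors, chaperones, adaptors, kinases and ubiquitin enzymes, transcription factors, inhibitors, endogenous ligands and targets; brightest tested probe per gene), the text names the direct partners of the receptors and up to 3 genes per comparison with the lowest unadjusted p; genes named for being at background were chosen after their values were seen. Probes most alike were ranked by Pearson's r, 5 for TLR4 and 3 for each other member well above background on all arrays. Cell type markers covered keratinocytes, leukocytes, B and T cells, fibroblasts, endothelium and melanocytes; of the last 3 kinds and of the B and T cell markers, 0 of 5, 1 of 3, 1 of 3 and 1 of 5 were well above background on all arrays.

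Alternatives were normexp with an offset of 50, quantile normalization, array weights, trended robust moderation, a replicate-number block, keeping outlier-marked spots, leaving the filter out or requiring detection on all 15 arrays, a slide term alone and a slide term without the array labelled replicate 2 of untreated SCC13-pUNO, only the groups compared, a mean over probes of a gene, a laxer detection mark and each array left out in turn. The fit was tested on simulated data. Figures were drawn with matplotlib 3.10.9 in Python 3.11.15.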

Additional observations from a re-analysis of the deposited data

Results flagged for a closer look

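For groups of 4 arrays, the distance of the highest or lowest array from its neighbour was divided by the span of the group and set against Dixon's limit at 95%, which chance passes in about 1 of 20 groups. Of 15 groups of the 5 tested receptor probes, 2 passed it, where chance gives 0.75. TLR1 on LPS-treated SCC13-pUNO replicate 2 was at -2.73, with the other 3 arrays of the group between -2.63 and -2.62. TLR4 on LPS-treated SCC13-pUNO replicate 4 was at -4.74, with the others between -6.26 and -6.09, and was not well above background. The TLR9 spot that the software marked as an outlier on LPS-treated SCC13-TLR4 replicate 3 was at 6.64, while TLR9 lay between -6.51 and -3.18 on the other 14 arrays. Its value was left out above, while its mark is counted among the 4 arrays well above background, and that array gives no level of TLR9.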

How the results depend on the processing

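The count of receptor probes called was 0 in each comparison and stayed so under the alternatives, with these exceptions. It was 1 (TLR4) between the lines without and with LPS when a slide term was fitted without the array labelled replicate 2 of untreated SCC13-pUNO (log2 fold change 8.40 and 8.86, limma adjusted p = 8.91e-05 and 1.13e-05), and 1 with LPS when only the groups compared were fitted (8.86, adjusted p = 1.16e-05). With each array left out in turn, it was 0 or 1 without and with LPS and 0 elsewhere, and the TLR4 log2 fold change ran from 5.27 to 8.41 and from 8.71 to 9.22, the call resting on that 1 array. The signalling genes gave 0 calls, apart from 1 (CXCL1, A_23_P7144, adjusted p = 0.0246) between the lines with LPS under that same setting. Under that setting the median of the 43 signalling genes turned to 0.05 between the untreated lines (26 of 43 positive, against 16), to 0.01 with LPS in SCC13-pUNO cells and to -0.07 for the difference of responses (0.04 in the fit reported above). Small differences changed sign. TLR6 between the untreated lines was -0.040 with normexp and -0.023 with quantile normalization. LPS in SCC13-pUNO cells gave -0.081 and -0.016 for TLR1 with quantile normalization and with slide as a factor without that array. It gave -0.052, -0.015 and -0.018 for TLR3 with quantile normalization, slide as a factor, and slide as a factor without that array, and 0.0072 for TLR6 with normexp. LPS in SCC13-TLR4 cells gave 0.0071, 0.058 and 0.011 for TLR1 with normexp, outlier-marked spots kept and array weights. The TLR1 difference of responses was 0.055 with outlier-marked spots kept and 0.0032 with slide and without that array. With single arrays left out, sign changes ran from -0.31 to 0.26 for TLR5 between the lines with LPS, from -0.021 to 0.081 for TLR1 and from -0.030 to 0.059 for TLR3 with LPS in SCC13-pUNO cells, from -0.10 to 0.061 for TLR1 and from -0.031 to 0.54 for TLR5 with LPS in SCC13-TLR4 cells, and from -0.14 to 0.028 for the TLR1 difference of responses. The cause of these changes was not tested. In their deviations from the group means, same-numbered arrays of different groups correlated between -0.54 and 0.62 (median 0.35, over 0.1 in 15 of 21 pairs), and differently numbered ones between -0.61 and 0.68 (median -0.23, over 0.1 in 26 of 63). Arrays that shared a slide correlated between 0.15 and 0.68 whatever their numbers, and arrays on different slides between -0.61 and -0.13. The 15 same-numbered pairs over 0.1 were those that shared a slide. Same-numbered arrays were more alike in the median, but not every pair was over 0.1. Only 3 of 15 arrays correlated best with their own number in every other group. The numbers were therefore not taken to pair the arrays. The fit reported above had no slide term, which does not follow from these correlations. Its spread thus holds the difference between the slides, and fits with slide as a factor are given among the alternatives. With the replicate block, 0 probes were called in any comparison, TLR4 differed between the lines by 6.17 and 8.86, and TLR4 with LPS in SCC13-TLR4 cells was 0.091. With the laxer detection mark, TLR4 (A_24_P69538) was detected on 12 arrays, TLR5 (A_23_P85903) on 11, TLR9 on 7, TLR10 on 6 and TLR4 (A_32_P66881), TLR7 and TLR8 on 2 each. Intensities near background limit what can be said of these probes.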
